A study of Mus musculus with 9 samples.

Results

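The genes described here are the chemokine ligands and chemokine receptors of the mouse heart. A gene was taken when its mouse symbol was Ccl, Ccr, Cxcl, Cxcr, Xcl, Xcr, Cx3cl or Cx3cr followed by a number and at most 1 further letter, a rule that used names and no measured value. It found 45 of the 22851 genes in the count table, 29 ligands and 16 receptors. A further 11 mouse genes with such symbols were not analysed here, so the 45 are not the whole family. RNA sequencing had been run on 9 heart libraries in 3 groups of 3. All came from male C57BL/6J mice aged 6 to 8 weeks at the start. The CK group was the control group and received citrate buffer. The DCM group, a model of diabetic cardiomyopathy, received a single injection of 180 mg/kg streptozotocin (STZ), which destroys the insulin-producing cells of the pancreas, and was studied after 12 weeks. The SPM group received the same STZ injection and, in addition, 1 mg/kg of the polyamine spermine (SPM) daily for 2 weeks before STZ and every other day in the 12 weeks after it. A group given spermine without STZ was not analysed here, so an SPM value stands for both agents together. The sources give both single hearts and pools of hearts as the origin of a library, so p-values measure the spread between these libraries, whichever it was.

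Chemokines are small secreted or membrane-bound proteins that direct the movement of leukocytes. They are named by the spacing of conserved cysteines (CC, CXC, XC and CX3C), and they act through receptors coupled to inhibitory G proteins, whose signal turns the actin skeleton of the cell towards the source. In the heart, fibroblasts, endothelium and resident macrophages secrete them, while most receptors sit on monocytes, macrophages, neutrophils and lymphocytes. Many ligand genes lie side by side in the genome, as do many receptor genes. Of the 45 genes, 11 were on chromosome 11 and 10 on chromosome 9. Ccl7, Ccl11, Ccl12, Ccl8 and Ccl1 were immediate neighbours on chromosome 11, and Xcr1, Ccr1, Ccr3 and Ccr2 stood in the same stretch of chromosome 9.

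The ligand genes called higher in the SPM compared to DCM group were Ccl12, Ccl8 and Cxcl13, and the sequence just upstream of each is shown because they are the ligands called there. The sequences are from RefSeq (GRCm38.p6), 120 bases on the + strand ending at the base before the annotated start. Capitals mark TATAAA, the core of the TATA box, and GGANNTTCC, a shortened and restricted form of the site bound by NF-kB, where either was found. Other forms of that site were not searched. Ccl12 lay at chr11:82101725-82101844, Ccl8 at chr11:82115065-82115184 and Cxcl13 at chr5:95956819-95956938.
Ccl12: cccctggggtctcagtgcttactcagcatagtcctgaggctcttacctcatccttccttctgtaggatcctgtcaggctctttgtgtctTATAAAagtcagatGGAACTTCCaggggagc
Ccl8: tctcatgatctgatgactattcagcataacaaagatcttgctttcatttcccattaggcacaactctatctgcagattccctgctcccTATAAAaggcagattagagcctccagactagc
Cxcl13: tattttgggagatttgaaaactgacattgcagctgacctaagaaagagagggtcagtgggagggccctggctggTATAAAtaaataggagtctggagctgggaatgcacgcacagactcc

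TATAAA began 31 bases before the start in Ccl12, 32 bases before it in Ccl8 and 46 bases before it in Cxcl13. GGANNTTCC began 17 bases before the start of Ccl12. Both motifs were then searched on both strands of the 250 bases upstream of every RefSeq promoter, where the motifs overlapped in none of the 3 sequences shown. TATAAA occurred in 12.4% of 32851 promoters and in 11 of 41 promoters (26.8%) of the 34 genes of the 45 that could be matched. GGANNTTCC occurred in 3.59% of all promoters and in 5 of the 41 (12.2%). These matches describe the letters in the window and no binding was measured.

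The 9 libraries held between 29901300 and 39718680 counts, of which the 45 genes together took 12169 to 18577. Mitochondrial genes took 13.7 to 18.9% of counts in the CK and DCM libraries and 21.0 to 21.1% in the SPM libraries. Markers of cardiomyocytes, which the label heart requires, summed to between 20483 and 31603 CPM (counts scaled to a common library total) in every library. One library stood apart. SPM replicate 2 lay between the other SPM libraries for 66.7% of 14548 genes with at least 30 counts in the group, where each of the other 8 libraries lay between its 2 partners for 15.4 to 39.1% of genes. Of 2656 genes at 0 in both SPM replicates 1 and 3, 30 had a count in SPM replicate 2, against 485 to 1162 such genes for the other libraries. Whether this library is an independent sample was not settled by the labels, so the calls, medians and counts of the SPM group are given with it and, further on, without it.

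Expression levels, compared between genes as FPKM (deposited fragment counts scaled by gene length and library total), spanned from single counts to a mean of 54.0 over the 9 libraries. Cxcl12, a stromal chemokine that retains and guides CXCR4-bearing cells, was the highest at a mean FPKM of 63.4 in CK, 50.8 in DCM and 47.9 in SPM. It was followed by Cxcl14, a chemokine of epithelial and stromal cells, with a mean FPKM of 11.8 over all libraries, and by Ccl8 and Cxcl13 with 10.8 and 10.2. The high means of Ccl8 and Cxcl13 came from the SPM group. In CK, Ccl8 had a mean FPKM of 4.18 and Cxcl13 of 0.623, while in SPM they had 23.7 and 27.6. Cx3cl1, Ccl27a, Cxcl16 and Ccl9 followed between 4.82 and 5.92. Among the receptors, Cxcr4, the receptor of Cxcl12, was the highest with a mean FPKM of 6.09, followed by Cx3cr1, the receptor of Cx3cl1, with 1.86 and Ccr7 with 1.00. The other 13 receptors were below 1 FPKM. Ccl1, Ccl20, Ccl21b and Cxcr1 had between 1 and 4 counts over all libraries, and the 23 counts of Cxcl15 were all in CK replicate 2. Ccl27a and Ccl27b are near-identical copies, as are the Ccl21 genes, so how reads were divided between such copies is uncertain.

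**Figure D1:**
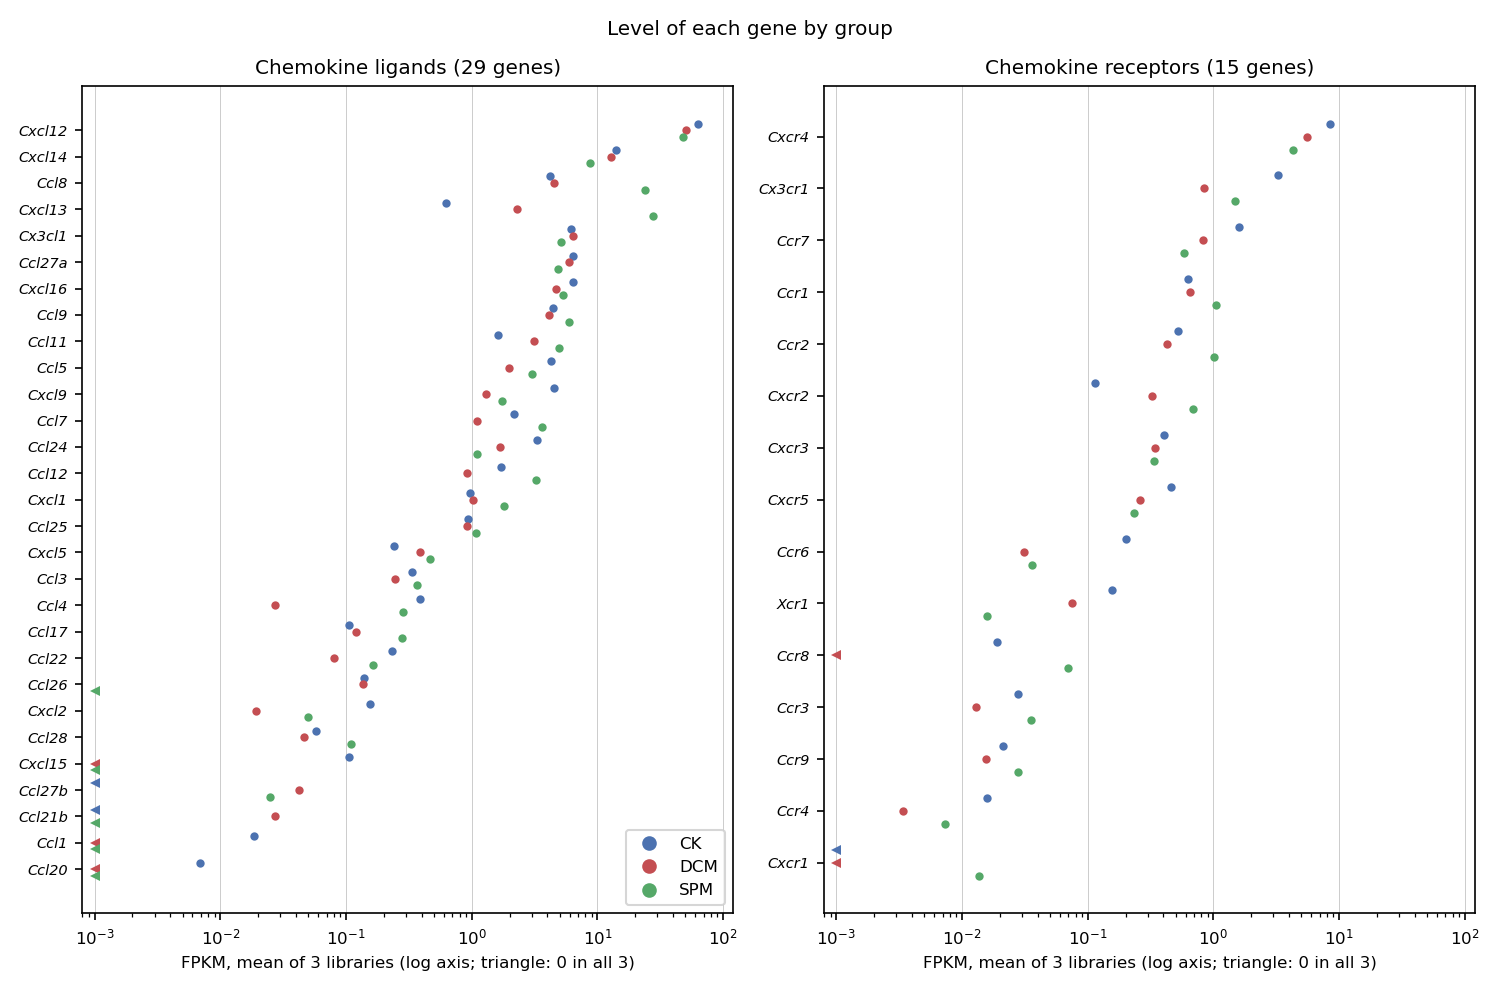
Mean FPKM of the 3 libraries of each group on a log axis, for ligand genes (left) and receptor genes (right), ordered by the mean over all 9 libraries, with a triangle at the left edge where a group is at 0. Cxcl12 leads the ligands in all 3 groups, and the SPM points of Cxcl13 and Ccl8 stand far to the right of their CK and DCM points.

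The first comparison asked which of these genes differed between the diabetic DCM hearts and the control CK hearts. Cx3cr1, Cxcl9 and Ccl24 were downregulated in DCM, to between 0.276 and 0.542 of the CK level, and Cxcl13 was upregulated 3.86-fold. A gene is called when edgeR's quasi-likelihood test gave a Benjamini-Hochberg adjusted p under 0.05 over all genes and the fold change was at least 1.5. Enough counts for the test were present for 28 of the 45 genes, and 17 were too low. The called genes were 1 higher and 4 lower, 17.9% of those tested, where 2.03% of all 14402 genes were called higher and 2.31% lower. The median log2 fold change was -0.21 over the 28 genes and -0.00 over all genes, with 9 values above and 19 below 0.

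Cx3cr1 is the fractalkine receptor of resident macrophages and patrolling monocytes. Its normalized CPM was 20.1, 13.0 and 8.77 in CK and 4.19, 3.59 and 3.76 in DCM (log2 fold change -1.86 ± 0.25 SE, adjusted p = 5.47e-04). Every DCM library was below the lowest CK library, and the CK libraries differed among themselves more than the DCM libraries did. The ligand of Cx3cr1, Cx3cl1, had 23.2, 17.8 and 17.8 CPM in CK and 25.3, 21.0 and 18.9 in DCM, which overlap, and was not called (log2 fold change 0.15 ± 0.13 SE, adjusted p = 0.542). Ccr2 and Ccr1, receptor genes of chromosome 9, had log2 fold changes of -0.20 ± 0.28 and 0.12 ± 0.33 SE and were not called.

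Cxcl9, an interferon-induced ligand of CXCR3 on activated T cells, had a normalized CPM of 17.3, 11.6 and 8.54 in CK and of 3.36, 3.53 and 4.58 in DCM (log2 fold change -1.71 ± 0.23 SE, adjusted p = 6.54e-04). The groups did not overlap. Its receptor gene Cxcr3 had a mean of 0.666 CPM in CK and 0.602 in DCM and was not called, with a log2 fold change of -0.12. Ccl24, an eosinophil attractant also made by macrophages, had 4.08, 4.89 and 3.25 CPM in CK and 2.47, 2.37 and 1.79 in DCM (log2 fold change -0.88 ± 0.24 SE, adjusted p = 0.0337). Ccl11, which shares the receptor of Ccl24, lay on the other side. It was at 0.956, 2.43 and 1.66 CPM in CK and at 3.56, 3.66 and 3.08 in DCM, a log2 fold change of 1.02 ± 0.31 SE that missed the threshold (adjusted p = 0.0545 by edgeR, 0.0211 by DESeq2). The DCM libraries were all above the CK libraries for Ccl11.

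Cxcl13, the B cell attractant of lymphoid follicles, which macrophages and stromal cells can make, had 0.701, 1.09 and 0.260 CPM in CK and 2.60, 2.58 and 2.88 in DCM. The DCM libraries were close to each other and all above CK (log2 fold change 1.95 ± 0.41 SE, adjusted p = 0.00965). Cxcr4 was lower by less than the fold limit, from 16.0, 14.3 and 13.2 CPM to 12.4, 9.56 and 8.66 (log2 fold change -0.51 ± 0.14 SE, adjusted p = 0.0414). Its ligand Cxcl12 had 373, 358 and 293 CPM in CK and 288, 299 and 289 in DCM, and was not called (log2 fold change -0.23 ± 0.09 SE, adjusted p = 0.140). The DCM and CK libraries did not overlap for 11 of the 28 genes tested, 39.3%, where the share among all genes was 29.3%.

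Some markers of leukocytes moved in the same comparison. The macrophage list of 8 genes summed to 334 to 424 CPM in CK and 317 to 351 in DCM, with Adgre1 called lower and Lyve1 higher. The T and NK cell list of 7 genes, 6 of them tested, summed to 6.04 to 9.88 CPM in CK and 1.97 to 4.42 in DCM, with Lck called lower. The B cell list, 3 genes measured, summed to 4.35 to 16.3 CPM in CK and 2.10 to 7.64 in DCM with no gene called. The neutrophil list of 6 genes, 4 of them tested, summed to 5.42 to 11.1 CPM in CK. In DCM replicates 1, 2 and 3 it summed to 15.4, 11.9 and 27.9 CPM, with S100a8 and S100a9 called higher. The neutrophil receptor gene Cxcr2 had a log2 fold change of 1.60 ± 0.58 SE that was not called (adjusted p = 0.109). Without CK replicate 1 it was called, at 2.72 (adjusted p = 0.0127), and with no low-count filter it was called at 1.60 (adjusted p = 0.0476). The 3 liver genes Alb, Apoh and Ttr summed to 3.41, 30.5 and 1.56 CPM in CK replicates 1, 2 and 3. In DCM they summed to 0.915 to 1.34 CPM, and of 2 tested Alb was called lower. No gene of these lists was at 0 in all libraries. In bulk tissue, fewer cells of a type and less RNA per cell cannot be told apart, and the part of these lists in the values above was not tested. Ccl24 lost its call without any 1 of CK replicates 1 and 2 and DCM replicates 1, 2 and 3 (adjusted p 0.0574 to 0.157), while Cx3cr1, Cxcl9 and Cxcl13 remained called whichever library was left out. With all 9 libraries in 1 fit, Ccl24 and Cxcl13 were no longer called (adjusted p = 0.132 and 0.162).

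**Figure D2:**
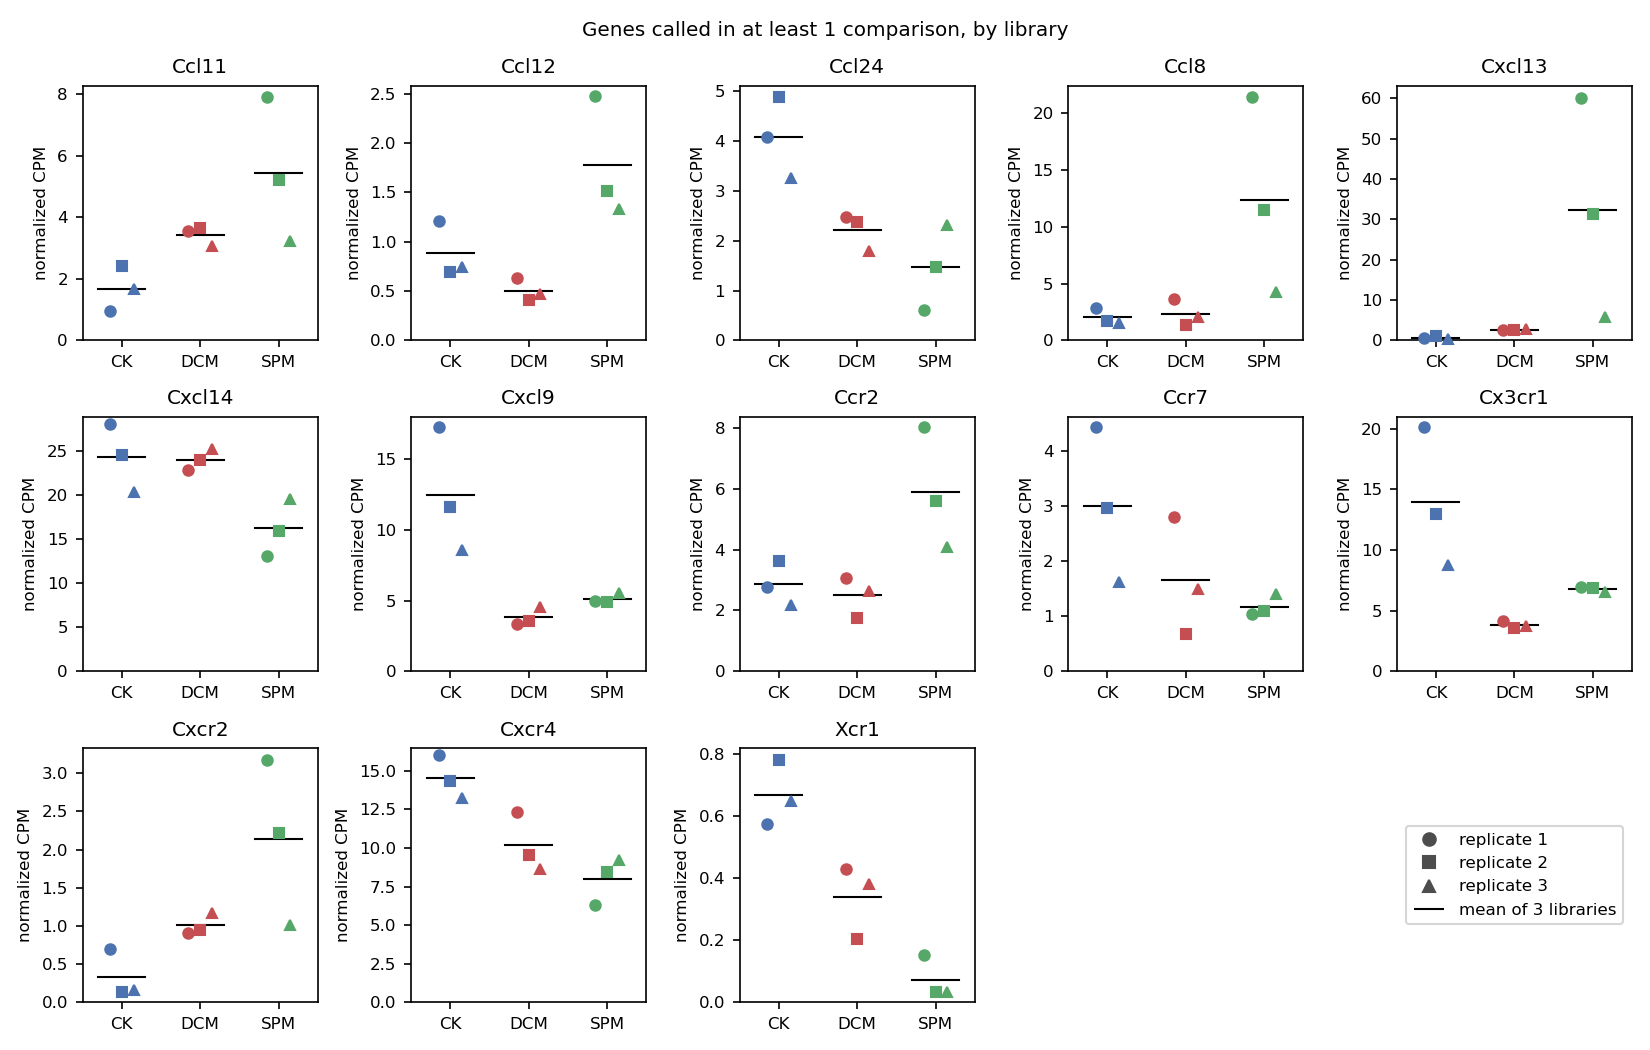
Normalized CPM in each library for genes called in at least 1 comparison, by group, with replicates 1, 2 and 3 as circles, squares and triangles and the group mean as a line. Cx3cr1 and Cxcl9 are low in DCM and SPM, and Cxcl13 ranges from 5.86 to 60.1 CPM among the SPM libraries.

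The second comparison asked which genes differed between diabetic hearts with and without spermine. Of 27 genes tested, 6 were upregulated in SPM compared to DCM, among them the ligands Cxcl13, Ccl8 and Ccl12 and the receptors Ccr2 and Cx3cr1. By edgeR 0 were called lower, and by DESeq2 also 0. At an unadjusted p under 0.05 by edgeR, 12 genes were higher and 1 lower, where 34.6% of all genes passed in either direction. The 1 lower gene, Cxcl14, passed the adjusted p limit (0.0206) and missed the fold limit alone. The 6 genes were 22.2% of those tested, where 2.7% of all 14493 genes were called higher and 0.89% lower. The median log2 fold change was 0.55 over the 27 genes and 0.01 over all genes, with 18 values above and 9 below 0.

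In the list chosen as CCR2 ligands, 2 of 3 genes tested were called higher, and all 3 had log2 fold changes above 0. CCR2 draws inflammatory monocytes out of the blood. Which receptor each listed ligand acts on in the mouse was not measured, so the list is a grouping only. The list held 4 ligands, and the other one was not analysed here. Ccl8 had 2.87, 1.70 and 1.56 CPM in CK, 3.68, 1.36 and 2.02 in DCM and 21.4, 11.5 and 4.29 in SPM (log2 fold change 2.38 ± 0.51 SE, adjusted p = 0.0175). The lowest SPM library was above the highest DCM library by little, and SPM replicate 1 was far above both other SPM libraries. Ccl12 had 1.21, 0.698 and 0.747 CPM in CK, 0.631, 0.407 and 0.469 in DCM and 2.47, 1.51 and 1.33 in SPM (log2 fold change 1.81 ± 0.36 SE, adjusted p = 0.0149). Ccl7, given here after its values were seen, had 1.29, 0.203 and 1.17 CPM in DCM and 4.61, 2.79 and 1.5 in SPM, and missed the threshold (log2 fold change 1.72 ± 0.54 SE, adjusted p = 0.0518). It passed by DESeq2 (adjusted p = 0.00757), with no low-count filter, with the 1 CPM filter, with all 9 libraries in 1 fit, with the replicate block and without SPM replicate 3 (adjusted p 0.0131 to 0.0491 by edgeR). In all 3 of these genes SPM replicate 1 was the highest and SPM replicate 3 the lowest of the SPM libraries. Ccl11, from the same stretch of chromosome 11, had 7.91, 5.20 and 3.22 CPM in SPM and was not called (log2 fold change 0.68 ± 0.28 SE, adjusted p = 0.115).

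Ccr2 itself had 2.77, 3.63 and 2.18 CPM in CK, 3.08, 1.76 and 2.64 in DCM and 8.04, 5.59 and 4.07 in SPM (log2 fold change 1.24 ± 0.27 SE, adjusted p = 0.0192). Cx3cr1 had 7.0, 6.84 and 6.51 CPM in SPM, closer to each other than those of Ccr2 (log2 fold change 0.82 ± 0.14 SE, adjusted p = 0.0111). Ccr1, a receptor of monocytes and neutrophils, had 1.91, 2.12 and 1.10 CPM in CK, 2.19, 2.0 and 1.41 in DCM and 3.54, 3.40 and 2.24 in SPM and was not called (log2 fold change 0.72 ± 0.26 SE, adjusted p = 0.0792). Cxcr2, the receptor that brings neutrophils, had 0.908, 0.949 and 1.17 CPM in DCM and was not called either (log2 fold change 1.09 ± 0.39 SE, adjusted p = 0.0780). The 4 lymphoid and other receptors tested, Ccr7, Cxcr3, Cxcr4 and Cxcr5, had values between -0.51 and -0.04 and none was called. Without DCM replicate 1 the value was 0.10 for Ccr7, 0.65 for Cxcr3 and 1.07 for Cxcr5, and Cxcr3 and Cxcr5 were also above 0 with the replicate block and by limma on log2(FPKM + 0.1). The sign of these 3 genes thus depended on the setting, while Cxcr4 was below 0 in each.

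Cxcl13 had the largest fold change of the 27 genes tested, 12.2-fold. It had 2.60, 2.58 and 2.88 CPM in DCM and 60.1, 31.4 and 5.86 in SPM, counts of 1967, 976 and 180 in the SPM libraries (log2 fold change 3.61 ± 0.65 SE, adjusted p = 0.0119). All SPM libraries were above DCM, and SPM replicates 1 and 3 differed more from each other than SPM replicate 3 did from DCM. Without SPM replicate 1 the log2 fold change of Cxcl13 was 2.79 and that of Ccl8 was 1.72, and both remained called. SPM replicate 2, not settled as an independent sample, stayed in that fit. The fit therefore cannot show that these calls do not depend on SPM replicate 1. Cxcl14 was lower by less than the fold limit (log2 fold change -0.56 ± 0.13 SE, adjusted p = 0.0206). The SPM and DCM libraries did not overlap for 12 of the 27 genes, 44.4%, where the share among all genes was 39.5%.

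**Figure D3:**
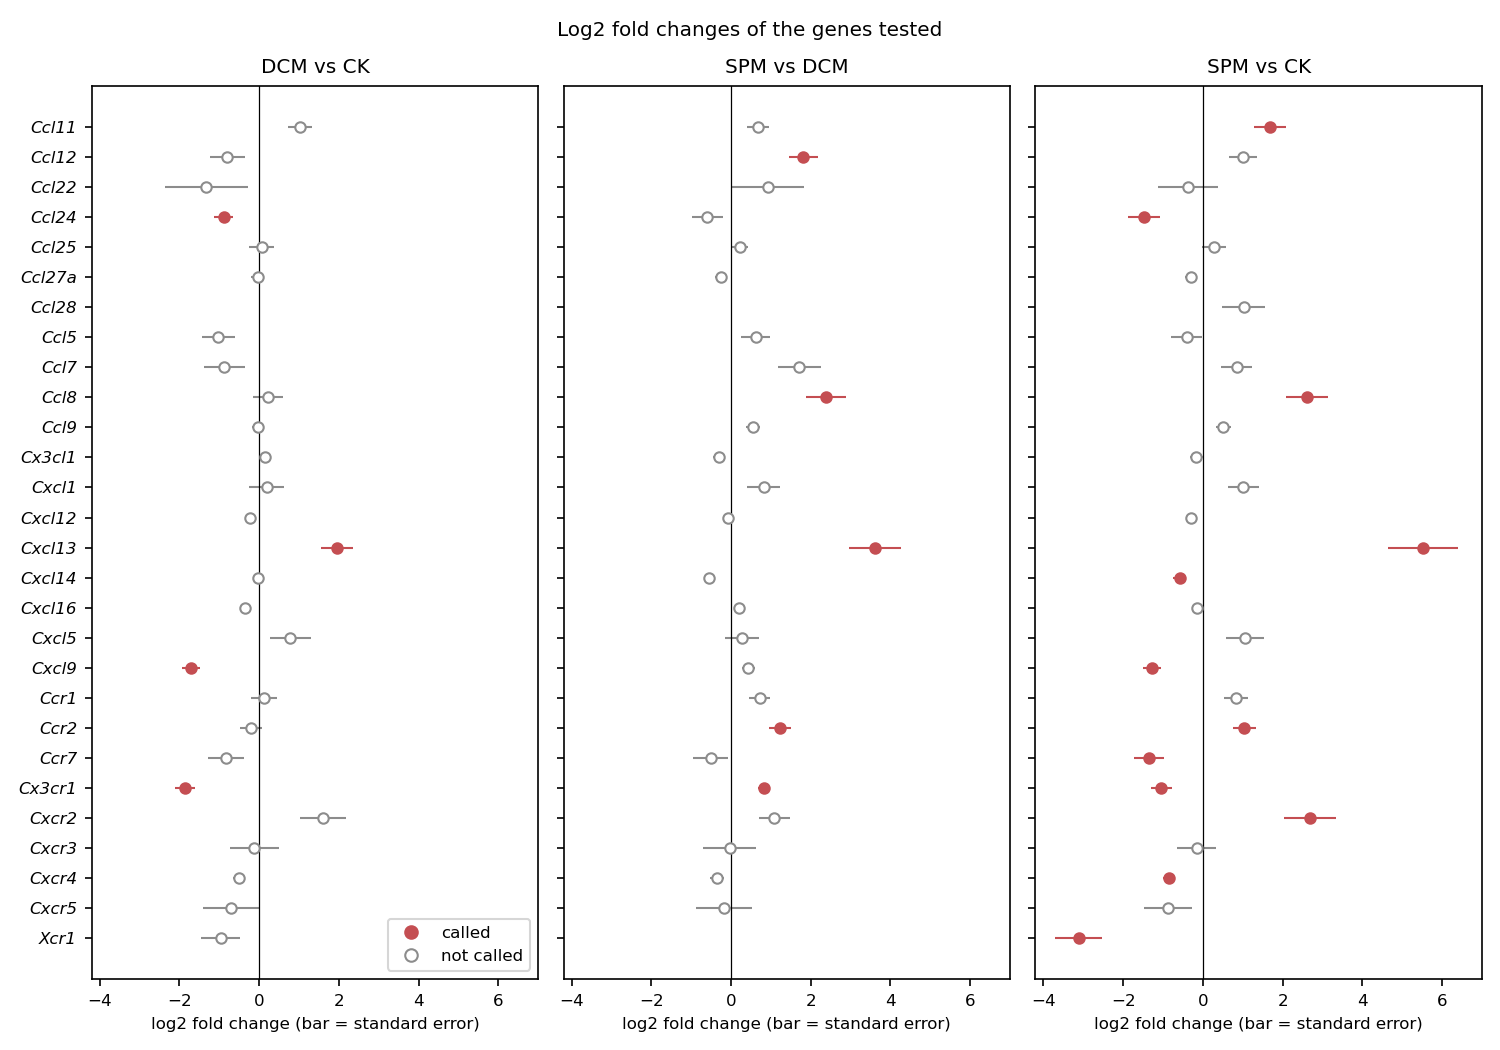
Log2 fold change with its standard error for genes tested in the 3 comparisons, ligands above and receptors below, with filled red points for called genes. In SPM vs DCM the called genes shown all lie to the right of 0, and Cxcl13 reaches 3.61 there and 5.53 in SPM vs CK.

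Some leukocyte markers and the liver markers also moved in this comparison. No gene was called in the T and NK cell list (5 tested), the B cell list (3 tested) or the dendritic cell list (4 tested). Log2 fold changes in these lists were above 0, below 0 and mixed in sign, in that order. The neutrophil list of 6 genes summed to 11.9 to 27.9 CPM in DCM and to 59.8, 44.3 and 30.5 in SPM replicates 1, 2 and 3, and 6 of 6 genes were called higher. The macrophage list was at 559, 464 and 380 CPM in SPM against 317 to 351 in DCM, with 4 of 8 genes called higher. The monocyte list of 4 genes was at 15.8, 18.0 and 19.8 CPM in SPM against 3.05 to 8.10 in DCM, with Plac8 and Chil3 called higher. SPM replicate 1 was the highest and SPM replicate 3 the lowest for the summed neutrophil and macrophage lists as for Cxcl13, Ccl8 and Ccr2, and the reverse held for the monocyte list. The 3 liver genes Alb, Apoh and Ttr summed to 265 CPM in SPM replicate 1, 120 in replicate 2 and 1.04 in replicate 3, against 0.915 to 1.34 in DCM, and all 3 were called higher. In SPM replicate 3, a single library, the liver genes were at the DCM level. Cxcl13 was at 5.86 CPM there, against 2.58 to 2.88 in DCM, and Ccl8 at 4.29, against 1.36 to 3.68. Ccr2 was at 4.07 CPM there, against 1.76 to 3.08 in DCM. Cx3cr1 was at 6.51, against 3.59 to 4.19, and Ccl12 at 1.33, against 0.407 to 0.631. The part of the leukocyte and liver lists in these results was not tested.

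Without SPM replicate 2, Cxcl13 remained called (log2 fold change 3.63, adjusted p = 0.0310) and was the 1 gene that did. Ccl12, Ccl8, Ccr2 and Cx3cr1 had log2 fold changes of 0.82 to 2.44 and were not called, with adjusted p of 0.0600 for Ccl12, 0.0520 for Ccl8, 0.0629 for Ccr2 and 0.0600 for Cx3cr1. Ccl12 also lost its call without DCM replicate 2, Ccl8 without DCM replicate 2 or 3, Cxcl13 without DCM replicate 1 or 2, and Ccr2 without any 1 of the DCM libraries. After a correction for GC content, Ccr2 had a log2 fold change of 0.93 and was no longer called (adjusted p = 0.0754). Without SPM replicate 2 the called gene was 1 of 28 tested, 3.57%, where 0.283% of all genes were called higher and 0.0944% lower. The median was 0.52, and the libraries did not overlap for 13 of the 28 genes, 46.4%, against 41.1% of all genes. Of the neutrophil, macrophage, monocyte and liver genes, Ngp, Lyve1, Plac8, Apoh and Alb were then called.

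**Figure D4:**
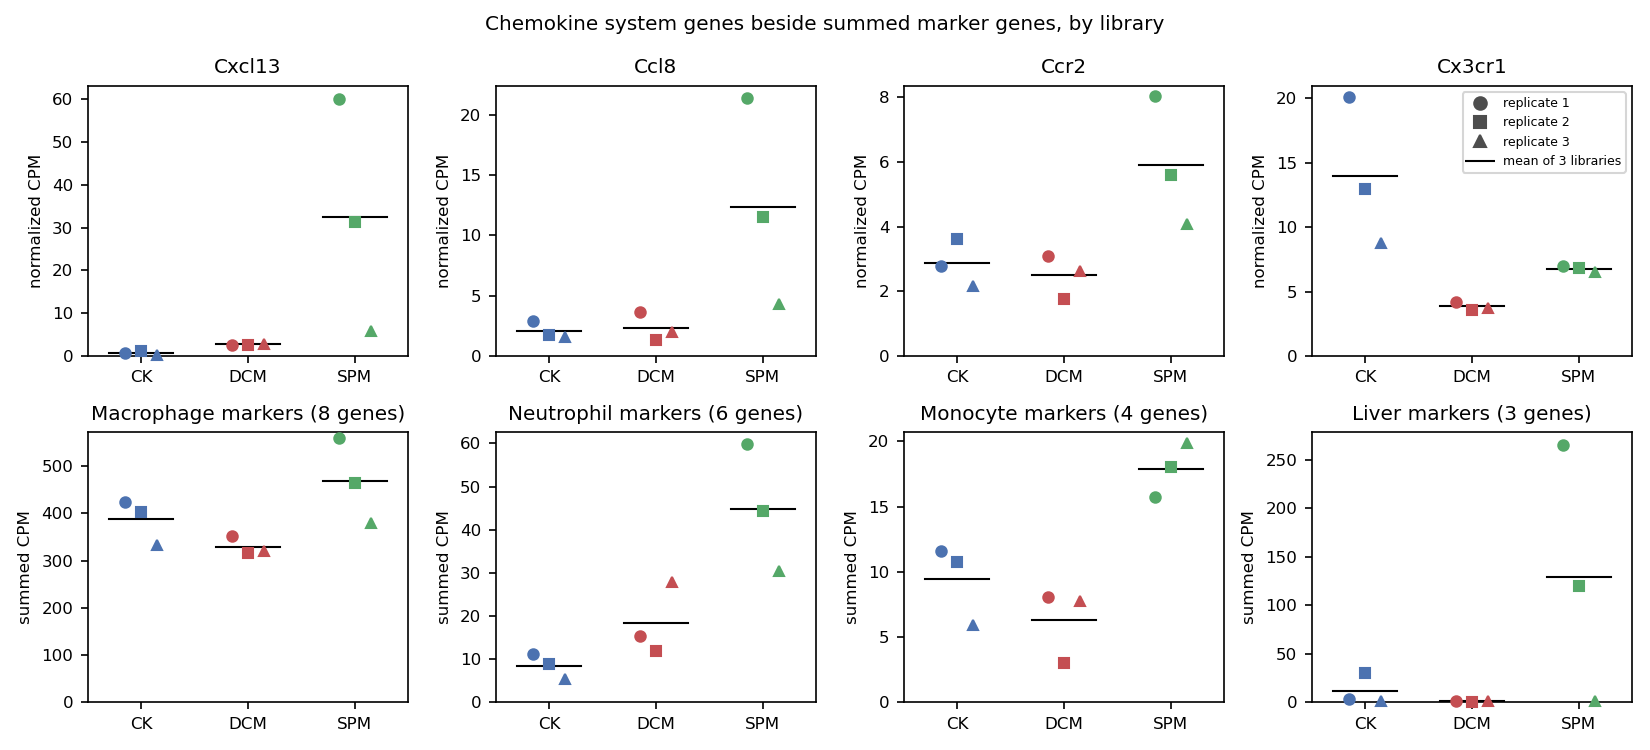
Normalized CPM of Cxcl13, Ccl8, Ccr2 and Cx3cr1 (top) and summed CPM of 4 marker lists (bottom) in each library, with replicates 1, 2 and 3 as circles, squares and triangles and the group mean as a line. In SPM, replicate 1 is the highest and replicate 3 the lowest for the macrophage, neutrophil and liver sums as for Cxcl13, Ccl8 and Ccr2, and the liver sum of replicate 3 is at 1.04.

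The third comparison set the SPM hearts against the control hearts and called the most genes, 12 of 29 tested. Ccl8, Cxcl13, Ccl11, Ccr2 and Cxcr2 were upregulated, and Cxcl9, Ccl24, Cxcl14, Cx3cr1, Ccr7, Cxcr4 and Xcr1 were downregulated. They were 41.4% of those tested, where 5.08% of all 14574 genes were called higher and 4.12% lower. The median log2 fold change was -0.16 over the 29 genes and 0.00 over all genes. The libraries did not overlap for 17 of the 29 genes, 58.6%, where the share among all genes was 46.1%.

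Cxcl13 was 46.2-fold higher than in CK (log2 fold change 5.53 ± 0.88 SE, adjusted p = 0.00351), with 22, 39 and 8 counts in the CK libraries. Ccl8 was 6.09-fold higher (log2 fold change 2.61 ± 0.53 SE, adjusted p = 0.00870). Without SPM replicate 1, and with SPM replicate 2 kept, these log2 fold changes were 4.73 and 1.95. Ccl11 was 3.22-fold higher (log2 fold change 1.69 ± 0.40 SE, adjusted p = 0.0157), and its mean of 1.68 ± 0.737 CPM in CK, 3.43 ± 0.309 in DCM and 5.45 ± 2.36 in SPM (SD, n = 3 each) was highest in SPM. Cxcr2 had 0.701, 0.140 and 0.162 CPM in CK and 3.18, 2.22 and 1.01 in SPM, all above CK (log2 fold change 2.68 ± 0.65 SE, adjusted p = 0.0173). Without CK replicate 1, the highest of the CK libraries, this value was 3.79. Its ligand genes Cxcl1 and Cxcl5 had log2 fold changes of 1.01 and 1.06 and were not called. Ccr2 was 2.06-fold higher (log2 fold change 1.04 ± 0.28 SE, adjusted p = 0.0272).

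Cxcr4 fell from a mean of 14.5 ± 1.40 CPM in CK to 8.0 ± 1.51 in SPM (SD, n = 3 each), with libraries of 6.32, 8.45 and 9.24 CPM in SPM that were all below CK (log2 fold change -0.86 ± 0.15 SE, adjusted p = 0.00439). Cxcl12 was lower by less than the fold limit (log2 fold change -0.31 ± 0.09 SE, adjusted p = 0.0322). Cxcl9 was at 4.98, 4.88 and 5.56 CPM in SPM, below the lowest CK library (log2 fold change -1.28 ± 0.23 SE, adjusted p = 0.00573), and its value in SPM compared to DCM was 0.44 and not called. Cx3cr1 was likewise below CK (log2 fold change -1.04 ± 0.26 SE, adjusted p = 0.0187). The 3 comparisons share libraries, so for Cx3cr1 the fall in DCM and the rise in SPM both rest on the same DCM libraries.

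Ccr7, which leads dendritic cells and T cells to lymph nodes, had 4.43, 2.96 and 1.62 CPM in CK, 2.80, 0.678 and 1.5 in DCM and 1.04, 1.09 and 1.40 in SPM (log2 fold change -1.35 ± 0.37 SE, adjusted p = 0.0265). Xcr1, the receptor of cross-presenting dendritic cells, had 18, 28 and 20 counts in CK, 17, 6 and 13 in DCM and 5, 1 and 1 in SPM (log2 fold change of SPM compared to CK -3.12 ± 0.60 SE, adjusted p = 0.00706). Without SPM replicate 1 that value was -4.22. Of 4 dendritic cell markers, 1 was called, Clec9a, which was higher (log2 fold change 0.72 ± 0.22 SE, adjusted p = 0.0386), and the list summed to 34.9 to 40.7 CPM in CK and 25.4 to 30.7 in SPM. Ccl24 was at 0.611, 1.48 and 2.31 CPM in SPM (log2 fold change -1.48 ± 0.40 SE, adjusted p = 0.0271), and Cxcl14 at 28.1, 24.6 and 20.4 in CK, 22.8, 24.0 and 25.2 in DCM and 13.1, 16.0 and 19.6 in SPM (log2 fold change -0.59 ± 0.16 SE, adjusted p = 0.0265), just past the fold limit. For Ccl24, Cxcl14 and Cxcr4, SPM replicate 1 was the lowest and SPM replicate 3 the highest of the SPM libraries.

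Without SPM replicate 2, Ccl11, Ccl8, Cxcl13, Cxcl9 and Cxcr4 remained called, and the other 7 genes did not, with adjusted p between 0.0507 for Xcr1 and 0.0995 for Ccr7. Ccl8, Cxcl13, Cxcl9 and Cxcr4 remained called whichever single library was left out. Fits without SPM replicate 1 or 3 kept SPM replicate 2, so they cannot show that a call does not depend on the library left out. Ccl11 lost its call without CK replicate 1 or 3, Cxcr2 without CK replicate 2 or 3, Ccl24 without CK replicate 1 or 2, Ccr7 without CK replicate 1 or 2 or SPM replicate 1, Ccr2 without CK replicate 1 or 3 or SPM replicate 1, and Cxcl14 without CK replicate 1 or 2 or SPM replicate 1. After the GC correction Ccr2 had a log2 fold change of 0.73 and Cxcl14 of -0.45, and neither was called (adjusted p = 0.0983 and 0.0575). By limma on log2(FPKM + 0.1) and log2(FPKM + 1), Ccr2 was not called (adjusted p = 0.0567 and 0.0589). Cxcl14 also lost its call with RLE normalization, the 1 CPM filter and all 9 libraries in 1 fit, where its fold fell just under the limit, and with the replicate block (adjusted p = 0.0503). Without SPM replicate 2 the 5 called genes were 3 higher and 2 lower of 31 tested, where 2.9% of all genes were called higher and 2.28% lower, and the median was -0.29. The libraries then did not overlap for 19 of the 31, 61.3%, against 47.4% of all genes.

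Leukocyte markers differed between SPM and CK as well. The neutrophil list was higher in SPM for 6 of 6 genes, and it summed to 5.42 to 11.1 CPM in CK. The monocyte list summed to 5.94 to 11.6 CPM in CK and 15.8 to 19.8 in SPM, with Plac8 and Chil3 called higher. The macrophage list summed to 334 to 424 CPM in CK and 380 to 559 in SPM, with Cd163 and Lyve1 called higher. The T and NK cell list was at 6.04 to 9.88 CPM in CK and 4.20 to 5.24 in SPM, with Lck called lower, and the 3 B cell genes at 4.35 to 16.3 and 2.32 to 4.49 CPM, with Cd79b called lower. Without SPM replicate 2, Plac8 and Lck were not called, and the other genes of these lists were. The 3 liver genes summed to 30.5 CPM in CK replicate 2 and to 3.41 and 1.56 in the other CK libraries, and edgeR called none of them in SPM compared to CK. The part of these lists in the SPM and CK values was not tested.

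The remaining ligands and receptors were called in no comparison. Cxcl16, which also serves as a scavenger on macrophages, had 18.2, 15.8 and 15.4 CPM in CK, 14.8, 11.9 and 12.2 in DCM and 15.3, 15.3 and 13.6 in SPM, and its largest log2 fold change was -0.35 ± 0.12 SE in DCM compared to CK (adjusted p = 0.0902). Ccl9, a macrophage chemokine for CCR1, had a mean of 12.8 CPM in CK, 12.5 in DCM and 18.2 in SPM. Ccl5, a T cell and macrophage product, had a mean of 2.74 CPM in CK, 1.34 in DCM and 2.06 in SPM. Ccl27a had 6.09, 5.19 and 7.18 CPM in CK, 6.53, 5.97 and 5.52 in DCM and 4.64, 5.20 and 5.11 in SPM. Its values stayed within 4.64 to 7.18 CPM in all 9 libraries. Cx3cl1 had 14, 16.8 and 21.6 CPM in SPM and Cxcl12 had 266, 278 and 283. Cxcl1, a neutrophil attractant, had a mean of 1.72 CPM in CK, 1.96 in DCM and 3.48 in SPM. Ccl25, a gut chemokine, was between 2.29 and 2.80 CPM in the group means. Ccl22, Cxcl5, Cxcr3 and Cxcr5 had group means between 0.179 and 1.24 CPM. Ccl28 was tested in SPM compared to CK alone and was not called (log2 fold change 1.02 ± 0.54 SE, adjusted p = 0.186). The other genes were too low to test in any comparison. Ccl3 and Ccl4, the macrophage inflammatory proteins, had 70 and 45 counts over the 9 libraries, 2 of those of Ccl4 in the DCM group. Cxcl2, which acts like Cxcl1, had 30 counts in CK, 4 in DCM and 10 in SPM, and Ccr6, a receptor of lymphocytes and dendritic cells, had 34, 6 and 6. Ccl17, Ccr3 and Ccr9 had 25 to 32 counts each, and Ccl26, Ccl27b, Ccr4 and Ccr8 had 3 to 10.

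Genes around the chemokine receptors were read from lists chosen by function. Their counts stand beside the shares of all genes, 2.03% higher and 2.31% lower in DCM compared to CK, 2.7% and 0.89% in SPM compared to DCM, and 5.08% and 4.12% in SPM compared to CK. Of 13 chemokine-like genes and scavengers outside the naming rule, 11 were tested in DCM compared to CK and 1 was called, Cmtm3, which was lower (log2 fold change -0.62). Cmtm3 and Ackr3, a scavenger receptor of Cxcl12, were lower in SPM than in CK (-0.74 and -0.64), 2 of 12 tested. Dpp4, a peptidase that trims chemokines, was higher in SPM than in DCM (0.64), 1 of 11 tested, and lost its call without SPM replicate 2. These are counts of 1 or 2 genes, from which no difference from all genes is read.

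The relay from receptor to cytoskeleton was described by 49 tested genes for G proteins, kinases and guanine exchange factors. The DCM hearts had 5 of these lower than CK, among them the leukocyte genes Dock2 (log2 fold change -0.81) and Prkcb (-0.75) and Gng11 (-0.66), and Ptk2b was higher (0.59). The median was -0.15 where that of all genes was -0.00. Compared to DCM, 7 were higher in SPM and the other 42 were not called, and the median log2 fold change was 0.14. Among those that rose were Dock2, the activator of Rac in leukocytes (0.59), Rac2 (0.63), Vav1 (0.61), the myeloid kinase Fgr (1.33), Gng2 (0.77) and Prkcb (0.68). EdgeR called 0 of the 49 without SPM replicate 2, where 15 were higher and 3 lower at an unadjusted p under 0.05 and the median was 0.15. Of all 14828 genes in that fit, 1790 were higher and 1476 lower at that limit, and 0.283% were called higher and 0.0944% lower. Against CK, the SPM group had 2 of the 49 higher, Fgr (1.15) and Gng2 (0.67), and 2 lower, Src (-0.61) and Gng11 (-0.62), shares close to those over all genes. Gng2 and Gng11 remained called without SPM replicate 2.

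Of the factors that induce chemokine genes, 13 were tested in DCM compared to CK. Irf9, a component of the interferon response complex, was lower (log2 fold change -0.77), as was the innate receptor Tlr2 (-0.63), and Nfkbia, the inhibitor of NF-kB, was higher (0.60). The SPM group had higher Tlr2 than DCM (0.71), with the other 12 not called, and higher Nfkbia than CK (0.64), with the other 13 not called. Tlr2 lost the call without SPM replicate 2 and Nfkbia kept it, and these too are counts of 1 or 2 genes.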

How the data were processed

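RNA of 9 libraries from mouse heart (3 per group) was sequenced by the authors after oligo(dT) selection and rRNA removal, with reads filtered by fastp. The extraction text in the labels speaks of retina, while the tissue labels say heart. The submitters' processing notes name Bowtie 0.12.2 and older mouse builds without a role, and how reads were counted is not given in the sources used here. Raw read counts of 22851 genes were deposited in whole numbers, beside deposited FPKM that follow from each count, 1 length per gene and the library total. Symbols came from a gene name table for 22820 genes.

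Counts were tested with edgeR 4.0.16 (R 4.3.3; filterByExpr, TMM, quasi-likelihood) on the 6 libraries of each comparison, with p-values adjusted over all genes tested. CPM were TMM-normalized, and standard errors are of the log2 fold change. Totals of 29901300 to 39718680 counts set the precision, and genes with few counts are the least certain. Alternatives were DESeq2 1.42.0, RLE normalization, no low-count filter or one of at least 1 CPM in 3 libraries, no fold limit, all libraries in 1 fit, a replicate block, limma 3.58.1 on log2(FPKM + 0.1) and log2(FPKM + 1), leaving out each library, and, chosen after seeing the data, a GC correction (lowess span 0.3) and the list counts without SPM replicate 2. The code was tested on simulated data.

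The genes and lists were chosen with earlier results of these data known. Genes given with every library are those called in any comparison and the 6 highest ligands and receptors by FPKM. Ccl7 and Cxcl16, list genes beyond the 6 largest changes of a comparison and the markers named were chosen after their values were seen. A few genes are not reported here by name or in the plots and remain in the counts. Lists covered roles, 3 pathway groups and 11 sets of markers, each described by counts and medians. Of the lists not described in the results, endothelium summed to 1349 to 1820 CPM, fibroblast to 1102 to 1649 CPM and platelet to 18.8 to 30.4 CPM; Col1a1 and Col3a1 were lower in DCM and SPM than in CK, and Tie1 and Gp9 lower in SPM than in CK.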

Additional observations from a re-analysis of the deposited data

How the results depend on the processing

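The number of genes called was 5 in DCM compared to CK, 6 in SPM compared to DCM and 12 in SPM compared to CK. It moved to 9 with no low-count filter and to 3 with all 9 libraries in 1 fit in the first comparison, and to 3 by limma on log2(FPKM + 1) in the second, and the cause was not tested. Leaving out 1 library gave 4 to 6, 1 to 12 and 5 to 16 genes in the 3 comparisons. The value of 1 came without DCM replicate 2 or SPM replicate 2, that of 12 without SPM replicate 3, and that of 5 without SPM replicate 2. Without DCM replicate 1 or 3 the second comparison gave 3 genes, and without CK replicate 1 the third gave 7. The other alternatives stayed within 1.5 times of these counts. With a replicate block the counts were 5, 8 and 14. The numbers alone give this pairing, and the deviations of libraries with the same number correlated between -0.0793 and 0.200 and those of other pairs between -0.281 and 0.215. No called value changed sign. Among the genes given with every library, log2 fold changes that were not called and changed sign when 1 library was left out ranged, in DCM compared to CK, from -0.14 to 0.091 for Ccl27a, -0.26 to 0.54 for Ccl8, -0.11 to 0.31 for Ccr1, -0.37 to 0.015 for Ccr2 and -0.14 to 0.093 for Cxcl14, and in SPM compared to DCM from -0.86 to 0.10 for Ccr7. Of the other tested genes, the same held in DCM compared to CK for Cxcr3 (-0.80 to 0.35), Cxcl1 (-0.45 to 0.49), Ccl25 (-0.21 to 0.31) and Ccl9 (-0.16 to 0.084), in SPM compared to DCM for Cxcr3 (-0.50 to 0.65), Cxcr5 (-0.65 to 1.07) and Cxcl5 (-0.12 to 0.58), and in SPM compared to CK for Ccl22 (-0.93 to 0.56) and Cxcr3 (-0.51 to 0.22). Ccl25 in SPM compared to DCM was at 0.23, and at -0.10 after the GC correction. Over the genes given with every library, 700 alternative values kept their direction and their side of the threshold, 62 lost the call, 19 gained it and 9 changed sign uncalled. Genes too low for the test, such as Ccl3, Ccl4 and Cxcl2, could not be compared at this depth.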
